A study of Homo sapiens with 16 samples.

Results

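The 10 genes described here encode chaperones of the endoplasmic reticulum (ER) and other well-known targets of the unfolded protein response (UPR), which are *HSPA5*, *HSP90B1*, *HYOU1*, *PDIA4*, *DNAJB9*, *SDF2L1*, *HERPUD1*, *XBP1*, *MANF* and *CRELD2*. They were chosen by name, with earlier results from these libraries in view, out of the 33937 genes of the count table. The choice drew on all 4 groups, so what follows describes these genes, and nothing is read from how many of them changed. RNA was sequenced from HCT116 cells, a human colon carcinoma line, that stably carried an inducible short hairpin RNA, either a scramble sequence (SCR) or one against *NAA40* (NAA40-KD), the gene of the N-terminal acetyltransferase of histones H4 and H2A. Each line was grown for 96 h with 1 μg/ml doxycycline (dox), the inducer, or without it, which gave SCR (-dox) with SCR (+dox) for the scramble line, and NAA40-KD (-dox) with NAA40-KD (+dox) for the knockdown line, 4 libraries each. Each line was a stable line compared with another stable line, so a standing difference between the lines and an effect of the hairpin cannot be told apart from a comparison of the lines alone. The sources describe 4 independent RNA samples per condition without naming separate cultures, so p-values measure the spread between these samples.

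Proteins that enter the secretory pathway are folded in the ER by *HSPA5* (BiP), an Hsp70 chaperone, and its partners. When unfolded proteins build up, the sensors IRE1 (*ERN1*), PERK (*EIF2AK3*) and ATF6 are activated. IRE1 splices *XBP1* mRNA, ATF6 is cut by proteases into a transcription factor, and PERK phosphorylates the initiation factor eIF2α, which lowers translation in general and raises that of *ATF4*. Spliced XBP1 and cleaved ATF6 raise the transcription of ER chaperones and degradation factors, while ATF4 raises genes of amino acid supply and of stress recovery. ATF4 is also made when other eIF2α kinases are active, for instance during amino acid shortage.

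The libraries held between 11065606 and 13855486 counts, over 22045 to 23286 genes with at least 1 count. *NAA40*, the target of the hairpin, stood in NAA40-KD (-dox) at 39.4% of its SCR (-dox) level, whereas NAA40-KD (+dox) had 111% of the SCR (+dox) level. The lower *NAA40* level thus lay in the libraries labelled as untreated, with an exact two-sided permutation p of 0.0286, the smallest that 4 against 4 libraries allow, and an adjusted p of 0.0381. The higher level in NAA40-KD (+dox) than in SCR (+dox) had the same p and adjusted p, as these groups did not overlap either. The edgeR test used below did not call it (log2 fold change 0.15 ± 0.096, SE, adjusted p = 0.281). Whether the dox labels of the NAA40-KD line were exchanged cannot be told from these counts. If they were, NAA40-KD (+dox) and NAA40-KD (-dox) would trade places in every difference and interaction below, which are all given by the labels, so that "the libraries labelled" is meant wherever a group of the NAA40-KD line is named. NAA40-KD (-dox) replicate 4 stood apart from the rest of its group. Its deviation from the mean of the other 3 libraries rose with the GC content of the gene (Pearson's r = 0.89 across 14366 genes, genes not being independent). In the libraries of the other groups r was -0.52 to 0.60. In NAA40-KD (-dox) replicates 1 to 3, whose reference mean contains replicate 4, r was -0.73 to -0.65. The share of mitochondrial counts in replicate 4, 5.03%, was the lowest of the 16. Where a comparison used this library, the calls among the 10 genes are therefore given with and without it. So are the counts by gene list, except for the interaction. This choice was made after the deviation was seen. Of the epithelial markers, *EPCAM*, *CDH1*, *KRT8*, *KRT18* and *KRT19* were present in every library, while *CEACAM5* and *VIL1* had at most 3 counts. *PTPRC*, *CD3E*, *PECAM1*, *ALB*, *MZB1* and *JCHAIN*, markers of other cell types, had at most 4 counts in any library, but the fibroblast marker *COL1A1* was at 57.7 to 189 CPM.

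The promoters of these genes carry the letters by which the ER stress factors are best known. The ER stress response element (ERSE, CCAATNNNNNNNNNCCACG) was searched on both strands in the 250 bases before each RefSeq transcription start (GRCh38.p14), with the related ERSE-II (ATTGGNCCACG). ERSE occurred in 26 of 35116 windows, 0.074%, and 4 of the 10 genes held it, namely *HSPA5*, *HSP90B1*, *XBP1* and *CRELD2*. ERSE-II occurred in 18 windows, 0.0513%, and *HYOU1*, *SDF2L1* and *HERPUD1* held it. *PDIA4*, *DNAJB9* and *MANF* held neither, which says only that these letters are not in this window. The core of the UPR element, TGACGTGG, was in 0.612% of windows and among the 10 genes only in *HYOU1*, where it overlapped an ERSE-II. A core of the ATF4 element, TTGCATCA, searched after the values had been seen, was in 0.772% of windows and among the 10 genes only in *HERPUD1*. The windows of *HSPA5* and *HERPUD1*, whose mRNA was lower in NAA40-KD (+dox), are shown beside those of *HSP90B1* and *SDF2L1*, which hold the same kinds of element and were not called there. Each runs 5′ to 3′, with matches in capitals.
HSPA5, chr9:125241344-125241593, minus strand: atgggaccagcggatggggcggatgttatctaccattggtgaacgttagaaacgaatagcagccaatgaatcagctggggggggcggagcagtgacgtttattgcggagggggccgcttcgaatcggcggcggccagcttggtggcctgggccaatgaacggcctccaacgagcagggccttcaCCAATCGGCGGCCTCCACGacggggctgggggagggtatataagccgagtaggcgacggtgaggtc
HERPUD1, chr16:56931892-56932141, plus strand: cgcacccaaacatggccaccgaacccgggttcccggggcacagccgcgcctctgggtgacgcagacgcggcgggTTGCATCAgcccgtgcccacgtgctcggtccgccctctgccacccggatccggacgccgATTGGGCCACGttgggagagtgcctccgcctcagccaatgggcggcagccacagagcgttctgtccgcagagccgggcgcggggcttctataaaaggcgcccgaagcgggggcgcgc
HSP90B1, chr12:103930160-103930409, plus strand: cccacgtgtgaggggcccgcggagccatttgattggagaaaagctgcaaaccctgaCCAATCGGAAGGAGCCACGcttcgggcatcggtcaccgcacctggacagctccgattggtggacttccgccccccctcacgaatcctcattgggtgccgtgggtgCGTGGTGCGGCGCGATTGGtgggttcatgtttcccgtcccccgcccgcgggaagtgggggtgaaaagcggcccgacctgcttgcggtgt
SDF2L1, chr22:21642052-21642301, plus strand: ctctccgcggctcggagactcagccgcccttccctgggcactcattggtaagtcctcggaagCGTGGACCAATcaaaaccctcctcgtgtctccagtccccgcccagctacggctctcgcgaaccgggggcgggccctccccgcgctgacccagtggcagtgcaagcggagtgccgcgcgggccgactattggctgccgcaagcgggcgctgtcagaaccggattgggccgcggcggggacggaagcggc
In *HSPA5* the capitals mark an ERSE that begins 66 bases before the start. *HERPUD1* has TTGCATCA from 176 bases before the start and the ERSE-II from 117. *HSP90B1* has an ERSE on the plus strand at 194 and another on the minus strand at 89, and the capitals in *SDF2L1* are an ERSE-II on the minus strand at 188. A match is a description of the sequence and not evidence of binding, and genes with ERSE or ERSE-II stood on both sides of the threshold in what follows. In GENCODE release 29 the annotated genes of *HERPUD1* and *SDF2L1* begin inside the windows shown, at 56932048 and 21642261. That of *HSP90B1* begins before its window, at 103930107, so its ERSE matches lie inside the annotated gene.

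The chaperones were the most abundant of the set. Per kilobase of merged exons, the mean level over all 16 libraries was 387 CPM (counts relative to the size of the library, scaled between libraries by the TMM method) per kb for *HSPA5* and 210 for *HSP90B1* (GRP94), the Hsp90 of the ER. *PDIA4*, a protein disulfide isomerase, followed with 76.4 CPM per kb, and *HYOU1* (GRP170), a large Hsp70-like chaperone and exchange factor of BiP, with 32.0. *XBP1* was at 25.4, *SDF2L1* at 21.9, *MANF* at 19.8 and *HERPUD1* at 14.1 CPM per kb. *CRELD2* at 6.36 and *DNAJB9* at 5.73 were the lowest. Together the 10 genes took 0.264 to 0.266% of all counts in NAA40-KD (+dox), a range that lay below the 0.382 to 0.418% in SCR (+dox), and *HSPA5* alone took 0.0912 to 0.0938% against 0.207 to 0.224%. In bulk RNA, fewer cells that express a gene and less RNA per cell cannot be told apart.

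**Figure D1:**
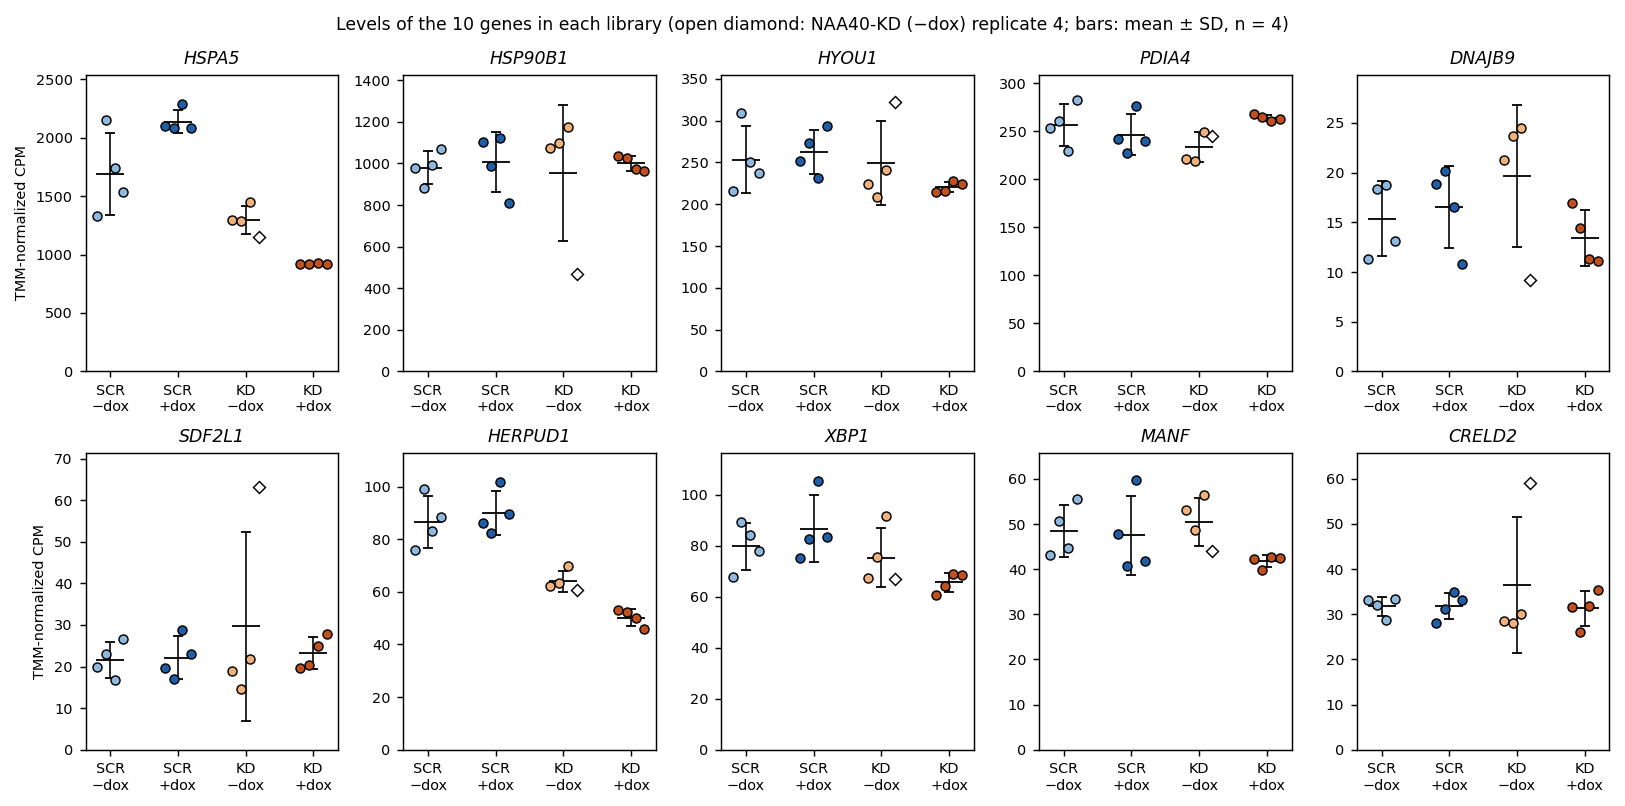
Each panel plots the TMM-normalized CPM (linear axis from 0) of 1 gene in each of the 16 libraries by group, with the mean and SD of 4 libraries as bars and NAA40-KD (-dox) replicate 4 as an open diamond. *HSPA5* lies at 919 to 930 CPM in all 4 NAA40-KD (+dox) libraries, below every other library, and the open diamond lies far from its group for *HSP90B1*, *DNAJB9*, *SDF2L1* and *CRELD2*.

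The comparison of NAA40-KD (+dox) with SCR (+dox) asks how the lines differ when both were labelled as induced. *HSPA5* (ENSG00000044574, GRCh38 chr9:125234853-125241330, minus strand) was lower by more than 1 log2 unit and *HERPUD1* by somewhat less, while the levels of *HSP90B1*, *PDIA4*, *SDF2L1* and *CRELD2* in the groups overlapped. With edgeR's quasi-likelihood test at a Benjamini-Hochberg adjusted p under 0.05 over all 13869 genes tested, 4 of the 10 genes were lower and 0 were higher. Of all genes tested, 13.7% were lower and 10.9% higher, and since the 10 genes were chosen with such results known, nothing is read from the counts. The median log2 fold change was -0.23 over the 10 genes and -0.0042 over all genes tested. Past an additional fold limit, a log2 fold change under -1, there was 1 of the 10, *HSPA5*, against 1.8% of all genes.

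The normalized level of *HSPA5* was 2101, 2080, 2285 and 2082 CPM in SCR (+dox) replicates 1 to 4 and 922, 923, 930 and 919 CPM in NAA40-KD (+dox). The groups were far apart, and the NAA40-KD (+dox) libraries were closer to each other (SD 4.52, n = 4) than those of any other group. The log2 fold change of *HSPA5*, with its SE, was -1.22 ± 0.081 (adjusted p = 1.57e-08), a level 43.2% of that in SCR (+dox), and in the 18 alternative analyses it lay between -1.23 and -1.19. *HSP90B1* (ENSG00000166598, chr12:103930107-103953645, plus strand) had 1105, 988, 1124 and 810 CPM in SCR (+dox) and 1036, 1028, 975 and 963 CPM in NAA40-KD (+dox). These ranges overlapped, and the log2 fold change was -0.015 ± 0.096 (adjusted p = 0.928). The ratio of *HSPA5* to *HSP90B1* counts within a library, which no scaling between libraries touches, was 0.890 to 0.955 in NAA40-KD (+dox) and 1.90 to 2.57 in SCR (+dox). These major chaperones of the ER thus changed unequally between the +dox groups. In SCR (-dox) the ratio was 1.36 to 2.44. In NAA40-KD (-dox) it was 1.17 to 1.24 in replicates 1 to 3 and 2.46 in replicate 4, so libraries of the same group could differ widely. *HSPA5* and *HSP90B1* differ in GC content (46.0 and 41.2%), and its part in the ratio was not tested. *HYOU1* (ENSG00000149428, chr11:119044189-119057202, minus strand) had 252, 273, 232 and 294 CPM in SCR (+dox) and 215, 216, 228 and 225 CPM in NAA40-KD (+dox). The groups did not overlap but almost touched, with a log2 fold change of -0.26 ± 0.090 (adjusted p = 0.0414), and the call was lost in 6 of the 8 fits that left out 1 library, where the log2 fold change was -0.32 to -0.19.

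The foldases and co-chaperones showed no called difference. *PDIA4* (ENSG00000155660, chr7:149003062-149028641, minus strand) had 242, 228, 277 and 240 CPM in SCR (+dox) and 268, 265, 261 and 262 CPM in NAA40-KD (+dox). In SCR (+dox), 1 library lay above all NAA40-KD libraries and 3 lay below, with a log2 fold change of 0.092 ± 0.082 (adjusted p = 0.442). *DNAJB9* (ERdj4, ENSG00000128590, chr7:108569568-108574850, plus strand), a J-domain partner of BiP that also represses IRE1, had 18.8, 20.2, 16.5 and 10.8 CPM in SCR (+dox) against 17.0, 14.4, 11.3 and 11.1 CPM. The log2 fold change was -0.31 ± 0.17 (adjusted p = 0.191), and without SCR (+dox) replicate 4, the lowest of its group, it was -0.47 (adjusted p = 0.0314). *SDF2L1* (ENSG00000128228, chr22:21642261-21644298, plus strand), an ER-resident partner of J-domain co-chaperones, had 19.6, 16.9, 28.8 and 23.0 CPM in SCR (+dox) and 19.6, 20.5, 24.8 and 27.8 CPM in NAA40-KD (+dox). Its groups overlapped throughout, with a log2 fold change of 0.064 ± 0.15 (adjusted p = 0.792).

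*HERPUD1* (ENSG00000051108, chr16:56932048-56944863, plus strand) encodes an ER membrane protein that helps to assemble the ubiquitin ligase complex for degradation of misfolded proteins. It had 86.2, 82.5, 102 and 89.6 CPM in SCR (+dox) and 53.0, 52.2, 49.9 and 45.7 CPM in NAA40-KD (+dox). Every NAA40-KD library lay below every SCR library, with a log2 fold change of -0.85 ± 0.092 (adjusted p = 3.88e-06), that is 55.8% of the SCR level. *XBP1* (ENSG00000100219, chr22:28794555-28800597, minus strand) had 75.3, 82.7, 106 and 83.5 CPM in SCR (+dox) and 60.8, 64.2, 69.1 and 68.5 CPM in NAA40-KD (+dox). These groups did not overlap either, and the log2 fold change was -0.41 ± 0.10 (adjusted p = 0.00739). The counts are per gene, so spliced and unspliced *XBP1* mRNA, whose balance reports IRE1 activity, are not separated. *MANF* (ENSG00000145050, chr3:51385047-51389397, plus strand) and *CRELD2* (ENSG00000184164, chr22:49918167-49927540, plus strand) encode small ER proteins that can be secreted during ER stress. *MANF* had 47.8, 40.8, 59.9 and 41.8 CPM against 42.3, 39.8, 42.6 and 42.4 CPM, with overlapping groups and a log2 fold change of -0.19 ± 0.11 (adjusted p = 0.216). *CRELD2* had 28.1, 31.2, 34.99 and 33.1 CPM against 31.7, 26.2, 31.8 and 35.4 CPM, again overlapping, and the log2 fold change was -0.034 ± 0.11 (adjusted p = 0.852).

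Exons of *HSP90B1* overlap those of *C12orf73*, *MIR3652* and *TTC41P*, those of *DNAJB9* overlap *PNPLA8* and *THAP5*, those of *CRELD2* overlap *ALG12*, and those of *HYOU1* overlap AP003392.3. The strand setting of the counting was not given in the sources used here, so how reads of such pairs were split is uncertain. This bears most on *DNAJB9*, with 115 to 333 counts per library, where *THAP5* had 104 to 617 and *PNPLA8* 150 to 513. The pseudogenes *HSP90B2P*, *HSP90B3P* and *XBP1P1* had at most 7 counts in any library.

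**Figure D2:**
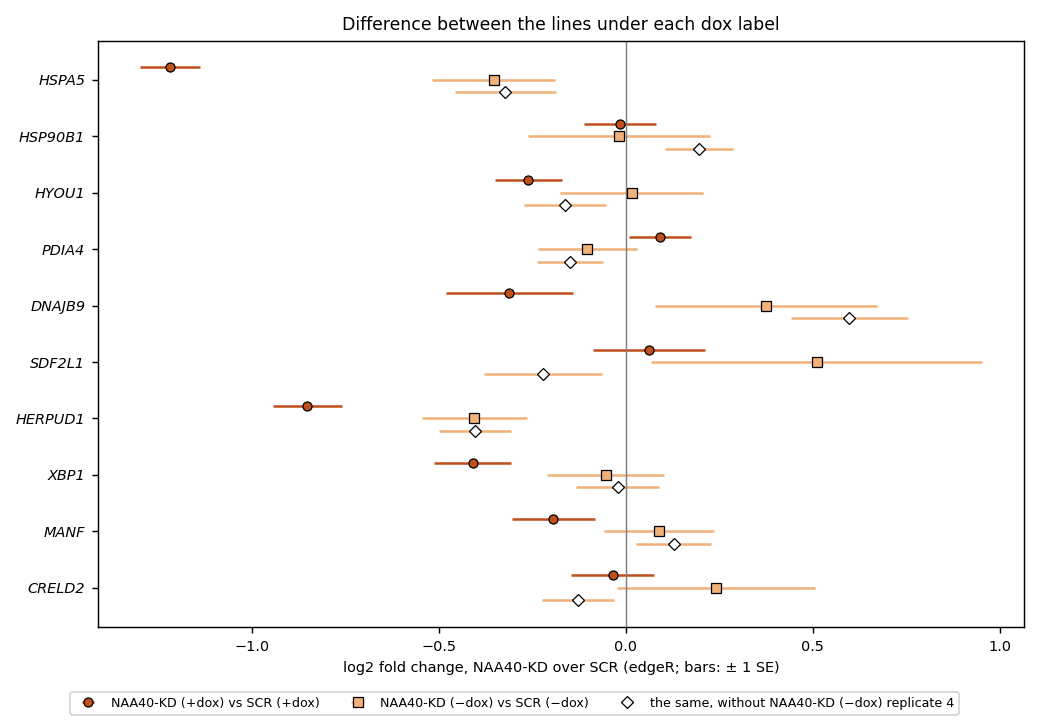
The horizontal axis gives the log2 fold change of NAA40-KD over SCR with its SE from edgeR for each of the 10 genes, for the +dox groups (circles), the -dox groups (squares) and the -dox groups without NAA40-KD (-dox) replicate 4 (open diamonds). *HSPA5*, *HERPUD1* and *XBP1* lie below 0 in all 3 fits, *XBP1* at only -0.053 and -0.022 in the -dox fits. For *SDF2L1* the -dox value moves from 0.51 to -0.22 when the library is left out.

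The same lines without dox, which is where *NAA40* was low, were compared next. None of the 10 genes was called between NAA40-KD (-dox) and SCR (-dox), with 0 higher and 0 lower at adjusted p under 0.05 in edgeR, 1 at an unadjusted p under 0.05, 1 called by DESeq2 and 0 by limma-voom. Over all 13903 genes tested, 2.88% were higher and 3.54% lower by edgeR, 23.6% had an unadjusted p under 0.05, and DESeq2 called 13.8% and limma-voom 7.13% in either direction. Without NAA40-KD (-dox) replicate 4 the shares over all genes were 17.1% higher and 19.4% lower, and 2 of the 10 genes were called, *DNAJB9* higher and *HERPUD1* lower. *HSPA5* had 1327, 2154, 1737 and 1537 CPM in SCR (-dox) and 1293, 1288, 1450 and 1153 CPM in NAA40-KD (-dox). Of the NAA40-KD libraries, 3 lay below every SCR library and the other above only the lowest of them, and the log2 fold change was -0.35 ± 0.16 (adjusted p = 0.229) with all libraries and -0.32 ± 0.14 (adjusted p = 0.0743) without replicate 4. *HERPUD1* had 75.7, 99.2, 83.0 and 88.5 CPM in SCR (-dox) and 62.1, 63.3, 69.9 and 60.8 CPM in NAA40-KD (-dox). The groups did not overlap, yet the log2 fold change of -0.41 ± 0.14 passed no threshold over all genes (adjusted p = 0.116), whereas without replicate 4 it was -0.40 ± 0.097 (adjusted p = 0.00434). *DNAJB9* had 11.3, 18.4, 18.8 and 13.1 CPM in SCR (-dox) and 21.3, 23.7, 24.4 and 9.16 CPM in NAA40-KD (-dox), the last value being replicate 4. Replicates 1 to 3 lay above every SCR library and replicate 4 below, and the log2 fold change was 0.38 ± 0.30 (adjusted p = 0.485) with it and 0.60 ± 0.16 (adjusted p = 0.0076) without it.

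Values of *SDF2L1*, *CRELD2*, *HSP90B1* and *HYOU1* in this comparison rested on the same library. *SDF2L1* had 18.9, 14.6, 21.7 and 63.3 CPM in NAA40-KD (-dox), and *CRELD2* had 28.5, 28.1, 30.1 and 59.0 CPM. In both, replicate 4 stood above all other 15 libraries. Their log2 fold changes, 0.51 ± 0.44 and 0.24 ± 0.27, became -0.22 ± 0.16 and -0.13 ± 0.097 without it, and none of these 4 values was called. *HSP90B1* had 1077, 1100, 1173 and 469 CPM, with replicate 4 below all other libraries, and its log2 fold change moved from -0.017 ± 0.24 to 0.20 ± 0.090 (adjusted p = 0.101). *HYOU1* moved from 0.016 ± 0.19 to -0.16 ± 0.11, also without a call in either fit. *PDIA4* (-0.10 ± 0.13), *XBP1* (-0.053 ± 0.16) and *MANF* (0.089 ± 0.15) were not called, nor were they without replicate 4 (-0.15 ± 0.088, -0.022 ± 0.11 and 0.13 ± 0.10).

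**Figure D3:**
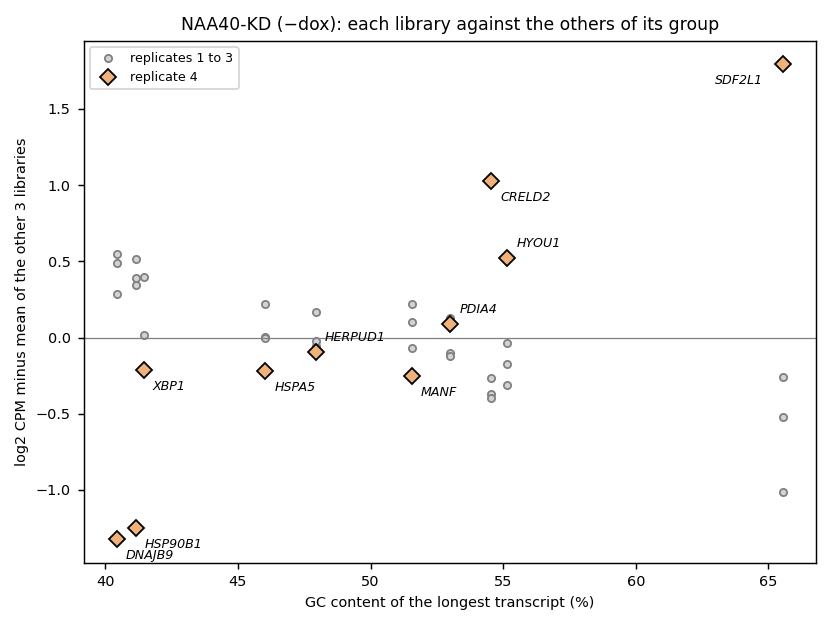
The vertical axis gives, for the 10 genes in each NAA40-KD (-dox) library, the log2 CPM minus the mean of the other 3 libraries of the group, against the GC content in percent of the longest transcript. Replicate 4 (diamonds) runs from -1.32 for *DNAJB9* at 40.4% GC to 1.79 for *SDF2L1* at 65.5% GC, with *HSPA5* at -0.22, *XBP1* at -0.21 and *HERPUD1* at -0.096.

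For the 10 genes, the deviation of that library tended to rise with GC content, as it did across all genes, but not in strict order. *DNAJB9* and *HSP90B1*, at 40.4 and 41.2% GC, deviated by -1.32 and -1.25, whereas *CRELD2* and *HYOU1*, at 54.5 and 55.2%, deviated by 1.03 and 0.52. *XBP1*, at 41.5% GC, deviated by only -0.21, and *HSPA5*, at 46.0%, by -0.22. *MANF*, at 51.6%, deviated by -0.25 and *PDIA4*, at 53.0%, by 0.091. Across all genes, the correlation of the log2 fold change with GC content between NAA40-KD (-dox) and SCR (-dox) was 0.32 with replicate 4 and -0.13 without it. Between NAA40-KD (+dox) and SCR (+dox), where this library takes no part, it was -0.12. The part of GC content in any single difference was not tested.

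Dox labels were then compared within each line. In the SCR line, where dox induces only a scramble hairpin, 0 of the 10 genes and 0 of all 13882 genes were called between SCR (+dox) and SCR (-dox) by edgeR, DESeq2 or limma-voom, and the background is therefore 0% in each direction. At an unadjusted p under 0.05 there were 271 of all genes (1.95%) and 1 of the 10, *HSPA5*, whose log2 fold change was 0.35 ± 0.14 (unadjusted p = 0.0187, adjusted p = 1.00). The other 9 genes had log2 fold changes between -0.049 and 0.13. In the NAA40-KD line, 1 of the 10 genes was called between NAA40-KD (+dox) and NAA40-KD (-dox), against 4.71% of all genes higher and 5.5% lower. This was *HSPA5*, lower in every NAA40-KD (+dox) library, with a log2 fold change of -0.51 ± 0.10 (adjusted p = 0.0149). The call was lost without any 1 of the 4 NAA40-KD (+dox) libraries, the log2 fold change remaining between -0.55 and -0.46 over all fits that left out 1 library. The call of *HSPA5* was also lost when the replicate number was added to the fit as a block.

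Without NAA40-KD (-dox) replicate 4, 7 of the 10 genes were called in the NAA40-KD line, beside 25.8% of all genes higher and 26.6% lower. *DNAJB9* (-0.80 ± 0.12), *HSPA5* (-0.55 ± 0.049), *HERPUD1* (-0.39 ± 0.066), *MANF* (-0.34 ± 0.068), *XBP1* (-0.26 ± 0.081) and *HSP90B1* (-0.17 ± 0.048) were lower in NAA40-KD (+dox). *PDIA4* was higher, by 0.19 ± 0.049 on the log2 scale, and *HYOU1*, *SDF2L1* and *CRELD2* were not called. With all libraries of the line, *NAA40* was higher in NAA40-KD (+dox) than in NAA40-KD (-dox), by 1.36 ± 0.15 on the log2 scale (adjusted p = 0.0024). Between NAA40-KD (-dox) and SCR (-dox), without replicate 4, *NAA40* (-1.40 ± 0.14) and *HERPUD1* (-0.40 ± 0.097) were both lower, while *DNAJB9* was higher (0.60 ± 0.16). A link of these genes to the level of *NAA40* was not tested.

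The difference between the lines under +dox was compared directly with that under -dox by the interaction of line and dox label in a fit of all 16 libraries. *HSPA5* was the only one of the 10 genes called, with an interaction of -0.86 ± 0.18 on the log2 scale (adjusted p = 0.00619), against 4.31% of all genes with a positive and 4.91% with a negative interaction. The shift between the lines in *HSPA5* was thus larger under +dox than under -dox, and in the fits that left out 1 library the interaction stayed between -0.999 and -0.76. *HERPUD1* had -0.44 ± 0.16 (adjusted p = 0.0904) and *DNAJB9* -0.68 ± 0.38 (adjusted p = 0.278), neither of which was called. Without NAA40-KD (-dox) replicate 4, *HSPA5* (-0.90 ± 0.16), *DNAJB9* (-0.92 ± 0.26) and *HERPUD1* (-0.46 ± 0.13) were called, beside 11.9% of all genes positive and 12.3% negative. For *DNAJB9* the line difference was -0.31 under +dox and, without that library, 0.60 under -dox. *HSPA5* and *HERPUD1* had the same order of mean levels over the groups, SCR (+dox), SCR (-dox), NAA40-KD (-dox), NAA40-KD (+dox), from high to low. For *HSPA5* the ranges of neighbouring groups overlapped except in the last step, and for *HERPUD1* they overlapped only between the SCR groups. *HYOU1* and *XBP1* had the same order of means, but all of their neighbouring groups overlapped, as did those of the other 6 genes, whose means followed other orders.

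Other genes of the ER and of the UPR were counted by list, the lists having been drawn up by function with earlier results of these libraries known. Nothing is therefore read from the counts by list. Over all genes tested, 13.7% were lower and 10.9% higher in NAA40-KD (+dox) than in SCR (+dox). Under -dox these shares were 3.54% and 2.88%, and 19.4% and 17.1% without NAA40-KD (-dox) replicate 4. Among the UPR sensors and the proteases and factors beside them, 2 of 8 tested genes were lower in NAA40-KD (+dox) than in SCR (+dox) and 0 were higher (median log2 fold change -0.044). *ERN1*, the gene of IRE1, had 53.8, 60.3, 37.8 and 56.5 CPM in SCR (+dox) and 42.5, 41.3, 35.5 and 36.5 CPM in NAA40-KD (+dox). Its groups overlapped through SCR replicate 3, and its log2 fold change was -0.43 ± 0.13 (adjusted p = 0.0186), a call lost without NAA40-KD (+dox) replicate 3 or 4 or SCR (+dox) replicate 2 or 4. *CREB3*, an ER-bound transcription factor, fell by 0.43 on the log2 scale (adjusted p = 0.0105). *EIF2AK3*, the gene of PERK, had 0.23 ± 0.13 (adjusted p = 0.209) and *ATF6* -0.26 ± 0.10 (adjusted p = 0.0743). Under -dox, *ERN1* (-0.21 ± 0.17), *EIF2AK3* (0.65 ± 0.20, adjusted p = 0.0872) and *ATF6* (-0.41 ± 0.23) were not called, and *CREB3L2* was the only gene of this list that was, higher by 0.64 ± 0.15 (adjusted p = 0.0357). The call of *CREB3L2* was lost in 7 of the 8 fits that left out 1 library. The exception was the fit without NAA40-KD (-dox) replicate 4, where *CREB3L2* had 0.71 ± 0.096 and *EIF2AK3* was called as well, at 0.81 ± 0.10 (adjusted p = 2.22e-05). In that fit *MBTPS1*, the gene of the site-1 protease that cuts ATF6, was lower (-0.32 ± 0.080, adjusted p = 0.00541), while *ERN1* (-0.22 ± 0.14) and *ATF6* (-0.22 ± 0.099) were again not called.

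The list named PERK-ATF4 arm was drawn up like the others, and nothing is read from its counts. As ATF4 is also made when other eIF2α kinases are active, the name does not say that PERK was involved. All 15 of 15 tested genes were lower in NAA40-KD (+dox) than in SCR (+dox), beside 13.7% of all genes. Their median log2 fold change was -1.22. *CHAC1* (-2.19 ± 0.27), a glutathione-degrading enzyme, *TRIB3* (-2.11 ± 0.12), a pseudokinase that restrains ATF4, and *SESN2* (-1.89 ± 0.13), an inhibitor of mTORC1, had the largest falls of the list. *ATF4* itself had 676, 582, 845 and 711 CPM in SCR (+dox) and 400, 394, 449 and 462 CPM in NAA40-KD (+dox), groups that did not overlap (log2 fold change -0.73 ± 0.10, adjusted p = 7.7e-05). Under -dox, 5 of 15 were lower and 0 higher (median -0.61), beside 3.54% and 2.88% of all genes. The falls were led by *SLC7A11* (-2.29 ± 0.28), *CHAC1* (-1.86 ± 0.32) and *TRIB3* (-1.62 ± 0.33). Leaving out NAA40-KD (-dox) replicate 4, 11 of 15 were lower and 0 higher (median -0.77), beside 19.4% and 17.1% of all genes. In that fit *SLC7A11* had -2.07, *CHAC1* -2.22 and *TRIB3* -2.02. The -dox call of *TRIB3* was lost in 6 of the 8 fits that left out 1 library, all but those without NAA40-KD (-dox) replicate 4 or SCR (-dox) replicate 1.

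**Figure D4:**
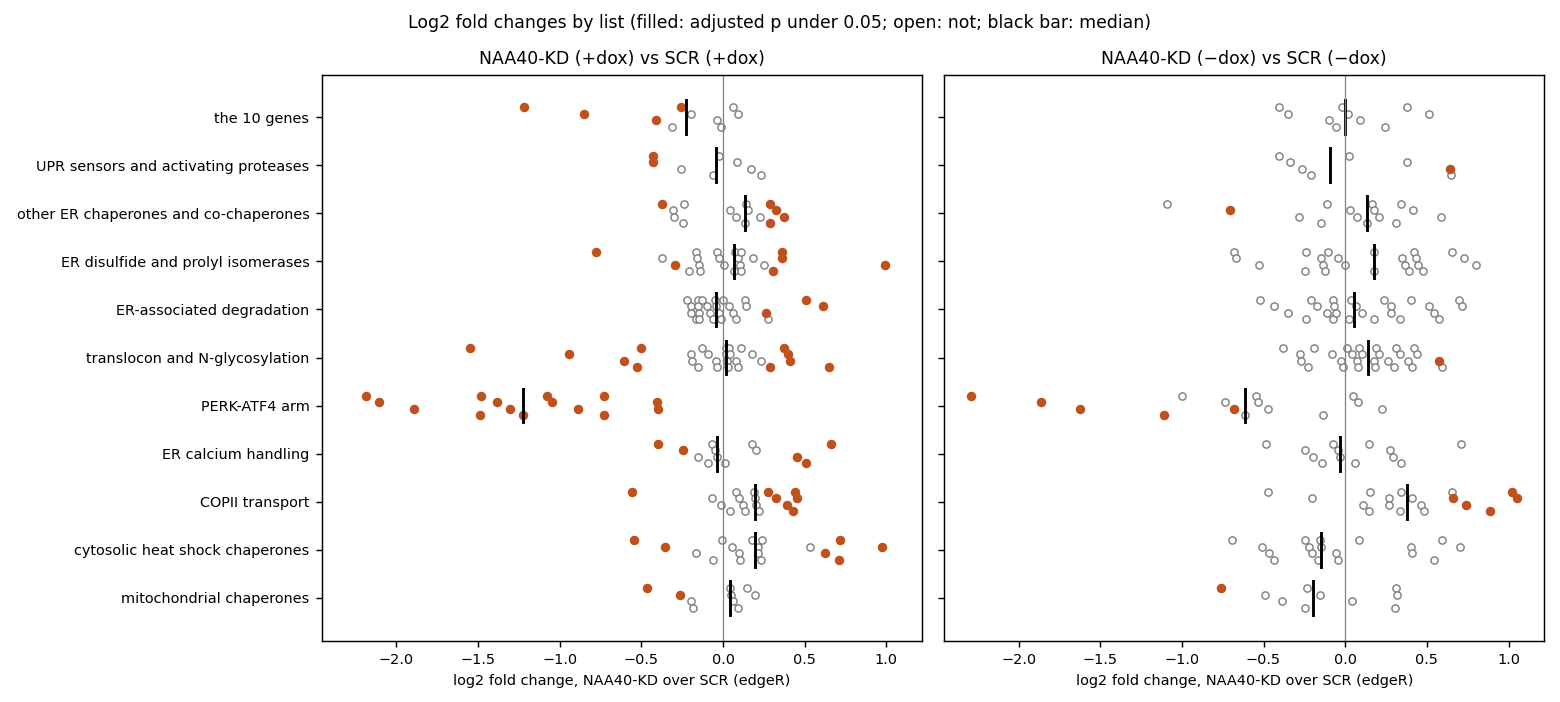
Each point is the log2 fold change of NAA40-KD over SCR for 1 gene, by list, under +dox (left) and -dox (right), with adjusted p under 0.05 filled, others open, and the median of each list as a black bar. All 15 points of the PERK-ATF4 arm are filled and below 0 on the left, while the ER chaperone, isomerase, degradation and translocon lists spread around 0 in both panels.

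The lists of the folding machinery itself held rises and falls. Of 15 other ER chaperones and co-chaperones, 4 were higher and 1 lower in NAA40-KD (+dox) than in SCR (+dox) (median 0.13). The rises were led by *UGGT2*, a glucosyltransferase that senses misfolded glycoproteins (0.37 ± 0.10), with the BiP partners *DNAJB11* (0.32 ± 0.10) and *DNAJC10* (0.29 ± 0.097). Of 23 disulfide and prolyl isomerases of the ER, 4 were higher and 2 lower (median 0.064). *ERO1A*, the oxidase that recharges protein disulfide isomerases, fell by 0.78 on the log2 scale (SE 0.10), while the prolyl isomerases *FKBP10* (0.36 ± 0.10) and *FKBP9* (0.31 ± 0.079) were higher. In ER-associated degradation, to which *HERPUD1* belongs by function, 3 of 26 tested genes were higher and 0 lower (median -0.046). These were the mannosidases *EDEM3* (0.61 ± 0.12) and *MAN1B1* (0.26 ± 0.083) and the ubiquitin-conjugating enzyme *UBE2G2* (0.51 ± 0.080). Leaving out any 1 NAA40-KD (+dox) library ended the calls of *DNAJB11*, *DNAJC10* and *MAN1B1*, as did leaving out SCR (+dox) replicate 4 for *DNAJC10* and replicate 1 for *MAN1B1*. The call of *FKBP10* was lost without NAA40-KD (+dox) replicate 1.

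The list for entry into the ER likewise held rises and falls. In the list for exit from it, COPII transport, 15 log2 fold changes lay above 0 and 3 below under +dox. Under -dox, with all libraries, 16 lay above 0 and 2 below. Of 28 genes of the translocon, signal peptidase and N-glycosylation, 5 were higher and 5 lower (median 0.021). *ALG5*, a glucosyltransferase of glycan assembly (-1.55 ± 0.16), *GANAB*, the catalytic subunit of glucosidase II (-0.94 ± 0.080), and *TRAM1* of the translocon (-0.60 ± 0.11) were lower, whereas *SEC61A2* (0.65 ± 0.15), *SSR1* (0.41 ± 0.090) and *DPAGT1* (0.40 ± 0.11) were higher. Of 13 tested genes of ER calcium handling, 3 were higher and 2 lower (median -0.040), among them the calcium binder *CALU* (0.66 ± 0.083), the inositol trisphosphate receptors *ITPR2* (0.51 ± 0.13) and *ITPR3* (0.45 ± 0.13), and *TMBIM6* (-0.25 ± 0.078), whose call was lost without any 1 NAA40-KD (+dox) library or SCR (+dox) replicate 1. Of 18 genes of COPII transport, the route from the ER to the Golgi, 6 were higher and 1 lower (median 0.19). The cargo receptor genes *LMAN1* (0.46 ± 0.12) and *MCFD2* (0.43 ± 0.087) and the coat gene *SEC24A* (0.44 ± 0.10) were higher, and the GTPase gene *SAR1A* was lower (-0.56 ± 0.087). Under -dox, 5 of the 18 COPII genes were higher and 0 lower (median 0.38), with *SEC13* (1.05 ± 0.20), *SEC24D* (1.02 ± 0.14) and *SEC31A* (0.88 ± 0.16) in front. Without replicate 4 there were 14 higher and 1 lower, with 0.82, 1.09 and 0.99 for these 3, beside 17.1% of all genes higher and 19.4% lower. The -dox calls of *SEC13* and *SEC31A* were lost without any 1 SCR (-dox) library.

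Chaperones of other compartments were counted beside them. Of 18 cytosolic heat shock chaperones, 4 were higher and 2 lower in NAA40-KD (+dox) than in SCR (+dox) (median 0.19). *HSPA8*, the constitutive cytosolic Hsp70, was 1487 against 753 CPM (0.98 ± 0.085), the opposite direction to its ER relative *HSPA5*. *HSPH1* (0.71 ± 0.093) and *HSPA1B* (0.71 ± 0.086) were also higher, *HSPB1* (-0.54 ± 0.13) and *DNAJB1* (-0.35 ± 0.096) were lower, and *HSPA1B* shares nearly its whole sequence with *HSPA1A*, so the split of reads between them is uncertain. Of 10 mitochondrial chaperones and proteases, 2 were lower and 0 higher (median 0.044), the Hsp70 *HSPA9* (-0.26 ± 0.078), whose call was lost without any 1 NAA40-KD (+dox) library, and the protease *LONP1* (-0.47 ± 0.086). Under -dox, *UGGT1* (-0.70 ± 0.17) was the only other ER chaperone called and *SSR2* (0.57 ± 0.15) the only translocon gene, *HSPA9* was lower (-0.76 ± 0.16), and no isomerase, degradation, calcium or cytosolic heat shock gene was called. The calls of *UGGT1* and *SSR2* were each lost in 7 of the 8 fits that left out 1 library and that of *HSPA9* in 6. Without NAA40-KD (-dox) replicate 4 they held, at -0.58 ± 0.090, 0.51 ± 0.095 and -0.65 ± 0.087. In that fit 17.1% of all genes were higher and 19.4% lower. Beside these shares, 2 of 15 other ER chaperones were higher and 2 lower. Of 28 translocon genes 10 were higher and 1 lower, and of 10 mitochondrial genes 4 were lower and 0 higher. The isomerases then had 6 of 22 tested genes higher and 3 lower. The degradation genes had 6 and 2 of 26, the calcium genes 2 and 2 of 13, and the cytosolic heat shock genes 1 and 4 of 18. Exons of *EIF2AK3*, *CREB3*, *DNAJB11*, *DNAJC10*, *ERO1A*, *SEC61A2*, *SSR1*, *SSR2*, *DPAGT1*, *ITPR2*, *ITPR3*, *MCFD2*, *SEC24A*, *SEC13*, *SEC31A*, *SLC7A11*, *HSPA8*, *HSPA1B*, *DNAJB1*, *HSPA9* and *LONP1* overlap those of another gene, with the same uncertainty as above. The same holds for *TXNDC11*, *SDF2*, *ASNS* and *SEC24C*, which are named further below.

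Across the 16 libraries the 10 genes did not vary as a block. On the log2 CPM scale, *HSPA5* ran closest with *HERPUD1* (Pearson's r = 0.95) and *XBP1* (0.81), but its r was 0.10 with *HSP90B1* and -0.19 with *PDIA4*. *SDF2L1* ran with *CRELD2* (0.92), and both against *HSP90B1* (-0.77 and -0.86), values that contain NAA40-KD (-dox) replicate 4. These are descriptions over 16 libraries that fall into 4 groups. Among 11440 other genes, those most like the mean of the standardized levels of the 10 were *SMIM3* (0.91), *TMEM106C* (0.91), *JPT1* (0.91), *ZNHIT1* (0.90) and *BEX3* (0.90). Those most like *HSPA5* alone, a search added after its values were seen, were *EIF1* (0.98), *MAP1LC3B* (0.96), *SARS1* (0.96), *MTHFD2* (0.94) and *BMERB1* (0.94).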

How the data were processed

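Total RNA of 16 HCT116 libraries, 4 in each of 4 groups, was sequenced. Per the study's methods and the labels, the authors prepared stranded libraries, aligned reads with STAR and counted them per gene with featureCounts. The deposited values are raw counts for Ensembl gene IDs. The build is given as mm10 in the methods and as hg38 and GRCm38 in the submitters' processing notes, and the IDs are human (33811 of 33937 were found in GENCODE release 29). The RNA kit also differs between the labels and the methods.

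The 10 genes, the 10 lists and the rule for naming list genes (called, groups not overlapping, mean of at least 5 CPM in 1 group, up to 3 rises and 3 falls per list) were chosen with earlier results of these data known. Counts were tested with edgeR 4.0.16 (R 4.3.3; TMM, robust quasi-likelihood F test, CPM above 1 in at least 4 libraries of the fit, Benjamini-Hochberg over all genes tested), in fits of the 8 libraries compared or of all 16 for the interaction. SE is the log2 fold change divided by the root of F. The tests were checked on counts simulated with the same spread for all genes and libraries, for NAA40-KD (+dox) against SCR (+dox) and for the interaction. That check does not cover the other comparisons or a library such as NAA40-KD (-dox) replicate 4. *NAA40* levels were compared by an exact permutation test over 4 comparisons. DESeq2 1.42.0, limma-voom (limma 3.58.1), other normalizations, filters, thresholds, a replicate block and leaving out each library were alternatives. Promoter windows came from RefSeq (GRCh38.p14), with all 10 genes matched. Each library was counted as a replicate, on the sources' description of independent RNA samples. The chi-square per degree of freedom between replicates was 1.79 to 4.82 in NAA40-KD (+dox). It was 9.44 to 26.6 in SCR (+dox) and 10.7 to 45.0 in SCR (-dox). In NAA40-KD (-dox) it was 2.56 to 7.84 among replicates 1 to 3 and 143 to 156 in pairs with replicate 4. A spread above sampling noise does not show that samples came from separate cultures.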

Additional observations from a re-analysis of the deposited data

Results flagged for a closer look

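In 5 of 44 groups of 4 libraries (the 10 genes and *NAA40*, by group), 1 library lay far from the other 3 by Dixon's ratio, where chance flags about 1 in 20. In 3 of the 5 it was NAA40-KD (-dox) replicate 4, with *HSP90B1* at 469 CPM, *SDF2L1* at 63.3 CPM and *CRELD2* at 59.0 CPM. The others were *HSPA5* in SCR (+dox) replicate 3 (2285 CPM) and *MANF* in NAA40-KD (+dox) replicate 2 (39.8 CPM).

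Among the 10 genes, *NAA40* and the genes of the lists, the difference between the lines depended on the dox label for 19, by the interaction in edgeR (adjusted p under 0.05, log2 scale, +dox minus -dox). Over all 14392 genes tested it was called for 1327, which is 9.22%. The 19 came from the 10 genes, *NAA40* and 10 lists of 8 to 28 tested genes each. These were chosen with earlier results known, so nothing is read from the number called. *NAA40* (1.46, adjusted p = 2.20e-04) and *HSPA5* (-0.86) were among the 19. *UGGT2* (1.46) and *UGGT1* (1.00, adjusted p = 0.00491), both sensors of misfolded glycoproteins, had positive interactions, as had *HSPH1* (1.22), *HSPA8* (0.90), *UBE2G2* (0.76) and *FKBP9* (0.45). *ALG5* (-1.16), *ATF3* (-1.15), *GFPT1* (-1.12), *PPP1R15A* (-1.07), *GANAB* (-0.97), *SEC13* (-0.96), *CREB3* (-0.80), *SDF2* (-0.64), *SEC24D* (-0.62), *TXNDC11* (-0.60) and *SSR2* (-0.54) had negative ones.

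The interaction of each of these 19 genes was called with the same sign without NAA40-KD (-dox) replicate 4, for instance 1.22 for *UGGT2*, 0.86 for *UGGT1*, -1.31 for *ALG5* and -0.85 for *GANAB*. Over the 16 fits that each left out 1 library, 6 of the 19 lost the call in some. *FKBP9* lost it in 14 (adjusted p up to 0.0834), *SDF2* in 12 (up to 0.0959), *SSR2* in 12 (up to 0.104), *GFPT1* in 10 (up to 0.0676), *PPP1R15A* in 7 (up to 0.0685) and *SEC24D* in 4 (up to 0.0625). The libraries that ended the call of *SEC24D* were NAA40-KD (+dox) replicate 4, SCR (+dox) replicates 1 and 2, and SCR (-dox) replicate 1. For *FKBP9* the call held only without NAA40-KD (-dox) replicate 3 or 4, and for the other 4 it was lost without libraries of several groups.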

How the results depend on the processing

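The number of the 10 genes called between NAA40-KD (+dox) and SCR (+dox) was 4, 3 to 4 with 1 library left out (17 to 25.4% of all genes called) and 2 in a fit of all 16 libraries (6.71%). Between NAA40-KD (-dox) and SCR (-dox) it was 0, but 1 with DESeq2 (13.8% of all genes), 2 in the fit of all 16 libraries (20.5%) and 0 to 2 with 1 library left out (1.64 to 36.5%). Between the dox labels of the NAA40-KD line it was 1, but 2 with DESeq2 (18.3%), in the fit of all 16 libraries (22.3%) or at an adjusted p of 0.1 (17.7%), 0 at an adjusted p of 0.01 (2.39%), without a filter (3.6%) or with the replicate block (5.61%), and 0 to 7 with 1 library left out (2.77 to 52.4%). For the interaction it was 1, but 2 with DESeq2 (14.2%) or at an adjusted p of 0.1 (14.9%) and 1 to 3 with 1 library left out (5.71 to 24.2%).

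Directions that reversed were all of values not called with all libraries. Scaled by library size alone, *HSP90B1* under +dox was 0.0019 and *HYOU1* under -dox -0.018, and *HYOU1* was -0.029 without a filter. With 1 library left out, the ranges under +dox were -0.099 to 0.035 for *HSP90B1*, -0.044 to 0.21 for *SDF2L1* and -0.097 to 0.044 for *CRELD2*. Under -dox they were -0.12 to 0.20 for *HSP90B1*, -0.16 to 0.13 for *HYOU1*, -0.22 to 0.75 for *SDF2L1*, -0.15 to 0.0077 for *XBP1* and -0.13 to 0.36 for *CRELD2*. Within the NAA40-KD line they were -0.17 to 0.16 for *HSP90B1*, -0.62 to 0.33 for *SDF2L1* and -0.36 to 0.11 for *CRELD2*. The mean level of *HSPA5* in NAA40-KD (+dox) was 928 CPM by library size, more than 1 SD from its TMM value of 923 CPM, with no change of direction. *NAA40* in NAA40-KD (+dox) was 112% of SCR (+dox) by library size, where the exact p missed the threshold, and 110 to 113% with 1 library left out, and in SCR (+dox) it was 88.4 to 97.6% of SCR (-dox).

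Replicate numbers did not pair the samples throughout: the correlation of same-numbered deviations was -0.46 to 0.26 over the 4 comparisons, and in none did all 4 exceed 0.1. Within the NAA40-KD line 3 of 4 did, and 3 of 4 libraries correlated best with their own number, a hint from the data and not from the design. With the replicate block, the calls over all genes went from 892 to 82 between NAA40-KD (-dox) and SCR (-dox) and from 1414 to 777 within the NAA40-KD line, where 0 of the 10 genes were then called and *HSPA5* had -0.50 (adjusted p = 0.0598). The number of the 10 genes called stayed at 4, 0 and 1 for +dox, -dox and the interaction. Log2 fold changes near 0 with SE of 0.08 to 0.44 were not detectable as differences at this depth and number of libraries. The causes of these shifts were not tested.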

Other observations

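Other ER genes also differed between the dox labels of the NAA40-KD line, where *NAA40* was higher in NAA40-KD (+dox). Of the COPII genes, 4 of 18 were lower in NAA40-KD (+dox) than in NAA40-KD (-dox) and 0 were higher, with *SEC13* (log2 fold change -0.93 ± 0.19, SE), *SEC24D* (-0.79 ± 0.13) and *SEC24C* (-0.69 ± 0.15) in front. Without NAA40-KD (-dox) replicate 4 there were 16 lower and 1 higher, beside 26.6% of all genes lower and 25.8% higher in that fit, against 5.5% and 4.71% with all libraries. Of the translocon and glycosylation genes, 3 of 28 were lower and 0 higher, among them *ALG5* (-1.04 ± 0.20) and *GANAB* (-0.94 ± 0.14), and without replicate 4 there were 16 lower and 4 higher. The glycoprotein sensors *UGGT2* (1.4 ± 0.28) and *UGGT1* (0.83 ± 0.16) were higher in NAA40-KD (+dox), as were *UBE2G2* (0.65 ± 0.13), *FKBP9* (0.46 ± 0.11), *HSPH1* (0.85 ± 0.21), *HSPA8* (0.56 ± 0.14) and *HSPA9* (0.62 ± 0.15). *CREB3L2* (-0.54 ± 0.13) and *TXNDC11* (-0.55 ± 0.11) were lower. Without replicate 4, calls higher and lower went from 2 and 0 to 12 and 4 of 18 cytosolic heat shock genes. They went from 1 and 0 to 7 and 1 of 10 mitochondrial genes, and from 1 and 1 to 5 and 8 of 23 isomerases. Other ER chaperones went from 2 and 0 to 5 and 8 of 15, and degradation genes from 1 and 0 to 4 and 7 of 26. UPR sensors went from 0 and 1 to 1 and 3 of 8, and calcium genes from 0 and 0 to 4 and 3 of 13.

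The genes listed as PERK-ATF4 arm, of which all 15 tested were lower between the lines under +dox, held calls in both directions here. *ATF3* (-0.93 ± 0.14), *ASNS* (-0.73 ± 0.20) and *PPP1R15B* (-0.53 ± 0.13) were lower in NAA40-KD (+dox) than in NAA40-KD (-dox), whereas *SLC7A11*, the cystine transporter, was higher (1.18 ± 0.28). Without replicate 4, 7 of the 15 tested genes were higher and 5 lower, beside 25.8% of all genes higher and 26.6% lower in that fit.

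Of the 18 list genes named here, 3 (*GANAB*, *ATF3* and *SEC24D*) were called in each of the 8 fits that left out 1 library. The call was lost in 7 fits for *CREB3L2*, *FKBP9*, *PPP1R15B*, *HSPH1* and *HSPA8*, in 6 for *ASNS* and *HSPA9* and in 5 for *SLC7A11*. It was lost in 4 for *UGGT2*, *TXNDC11*, *UBE2G2*, *ALG5*, *SEC13* and *SEC24C*, those without 1 of the NAA40-KD (+dox) libraries, and in 3 for *UGGT1*, without NAA40-KD (+dox) replicate 2, 3 or 4. All 18 were called with the same sign without NAA40-KD (-dox) replicate 4, for instance *ALG5* at -1.18, *GANAB* at -0.82, *UGGT2* at 1.16, *ATF3* at -0.87, *ASNS* at -0.55 and *SLC7A11* at 0.96.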
